A study of Mus musculus with 16 samples.

Results

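The comparison described here set neutrophils of the lung of germ-free (GF) mice against those of the lung of specific-pathogen-free (SPF) mice. Its members are the 6 lung libraries among the 16 libraries analysed, chosen by their tissue label and split by microbial status: 3 GF lung libraries (replicates 2, 3 and 4) and 3 SPF lung libraries (replicates 1, 2 and 3). All were made from C57BL/6 mice, and none is labelled with a treatment or an engineered allele. Mouse age and sex are not given in the sources used here. GF animals are raised without any microbe, whereas SPF animals carry a microbiota free of listed pathogens. The remaining 10 libraries hold blood and spleen neutrophils of GF and SPF mice (2 of each status from blood and 3 of each from spleen). Cells were sorted by flow cytometry as living CD45+ CD11b+ Ly6G+ cells with a stated typical purity above 95%, and their amplified RNA was sequenced in bulk. The labels tie each library to a mouse of the given status but do not say whether the libraries came from separate animals, so each p-value reflects how far the libraries themselves varied, and that variation may be technical in part.

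Neutrophils are short-lived phagocytes made in bone marrow and released to blood, from which many lodge in the small vessels of the lung. They sense microbial products through Toll-like receptors and cytokines such as interferon-gamma, and answer with granule release, an oxidative burst and inflammatory mediators. Microbial products from the gut are known to influence how neutrophils age and respond. The lung is built of alveolar and airway epithelium, dense capillary endothelium and stroma, whose RNA can be carried over when lung is dissociated and sorted.

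The lung libraries held 504207.8 to 1147991 recovered reads (median 856319), and a library had 10 reads or more for 4392 to 6708 genes. Values are normalised counts: the authors' deposited signal, already scaled between libraries, less the half-read offset it contains. One read was worth 0.885 to 1.97 of these units in lung. Blood and spleen libraries ranged from 104213 to 3033941 reads, and 5 of these 10 were under 250000. Neutrophil transcripts were counted in all 6 lung libraries, although that of the sorting antigen was low. Csf3r, the G-CSF receptor, stood at 8263, 7597 and 6593 in GF lung, against 7982, 8683 and 6694 in SPF lung. Cxcr2, a chemokine receptor of circulating neutrophils, stood at 2521, 3024 and 2579 in GF lung, against 2251, 3049 and 2569 in SPF lung. The groups overlapped for both receptors, as they did for the calprotectin subunits S100a8 and S100a9. Ly6g, which encodes the sorting antigen, stood at 41.0, 44.3 and 20.3 in GF lung, against 43.4, 51.3 and 41.7 in SPF lung, and these groups overlapped too. Its mean was 35.2 in GF lung and 45.4 in SPF lung, below that of every blood and spleen group. The summed level of 4 Y-linked genes was 138 in GF replicate 2 and at most 0.885 in GF replicates 3 and 4, against 170 and 138 in SPF replicates 1 and 3 and 1.17 in SPF replicate 2. Each status therefore mixed libraries with and without Y-linked RNA, and the mix was unequal.

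Few genes separated GF from SPF lung neutrophils. Ifngr2, which encodes the signalling chain of the interferon-gamma receptor, was lower in GF lung. Crispld2, a secreted protein that binds bacterial lipopolysaccharide, was higher. These were the 2 genes of 8299 tested (0.0241%) past an adjusted p of 0.05 in limma's moderated test with Benjamini-Hochberg adjustment, fitted to all 16 libraries. At an unadjusted p under 0.05 there were 226 genes higher (2.72%) and 106 lower (1.28%) in GF lung. In this fit, their total of 332 is below the 415 that make up 5% of the tests. That total depended on the fit. Across the alternatives it ran from 186 (without SPF replicate 1) to 778 (the 6 lung libraries alone), with 777 without the 5 shallow blood and spleen libraries. The 3 GF libraries lay above all 3 SPF libraries for 682 genes (8.22%) and below them for 494 genes (5.95%). Of the 8299 differences, 4373 were positive and 3926 negative. Counts of members in the gene groups described further on are to be read against these shares.

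Ifngr2 (ENSMUSG00000022965, GRCm38 chromosome 16, 91547072 to 91565623, plus strand, protein coding) had 45.9, 48.7 and 55.1 normalised counts in GF lung, against 156, 140 and 133 in SPF lung. Every GF library was lower than every SPF library, and both groups were tight. The means were 49.9 ± 4.72 in GF lung and 143 ± 11.5 in SPF lung (SD, n = 3 each). The log2 difference was -1.49 (SE 0.252, 95% interval -2.01 to -0.976), and limma gave an adjusted p of 0.0138. The interval lies wholly below 0. In the libraries with Y-linked RNA, Ifngr2 stood at 45.9 in GF lung, against 156 and 133 in SPF lung. In those without it, Ifngr2 stood at 48.7 and 55.1 in GF lung, against 140 in SPF lung. GF was lower in both subsets, which any split of groups that do not overlap must give, so it adds no evidence. Each subset has 1 library on one side, so no test within them is possible. Leaving out 1 lung library kept the log2 difference between -1.43 and -1.56. The adjusted p then rose to 0.21 without GF replicate 2, 0.0829 without GF replicate 3, 0.0635 without GF replicate 4, 0.197 without SPF replicate 1 and 0.0929 without SPF replicate 3, and was 0.0306 without SPF replicate 2.

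Crispld2 (ENSMUSG00000031825, chromosome 8, 119992438 to 120052793, plus strand, protein coding) had 474, 330 and 403 normalised counts in GF lung, against 63.1, 223 and 88.5 in SPF lung. Every GF library was higher than every SPF library, with SPF replicate 2 nearest to the GF libraries. The means were 402 ± 71.8 in GF lung and 125 ± 85.7 in SPF lung (SD, n = 3 each), a log2 difference of 1.87 (SE 0.315, 95% interval 1.22 to 2.52) with an adjusted p of 0.0138 in limma. GF was higher in the libraries with Y-linked RNA (474 in GF lung, against 63.1 and 88.5 in SPF lung) and, by a smaller gap, in those without it (330 and 403 in GF lung, against 223 in SPF lung), again with 1 library on one side of each. The shared direction again follows from the lack of overlap. With the Y-linked level as a covariate, chosen after seeing the data, the log2 difference was 1.82 and the adjusted p 0.0671. The call was also lost on leaving out GF replicate 2 (adjusted p 0.21), GF replicate 3 (0.0554), GF replicate 4 (0.151), SPF replicate 1 (0.197) or SPF replicate 3 (0.242). Without SPF replicate 2 the log2 difference was 2.38 and the adjusted p 1.5e-05.

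**Figure D1:**
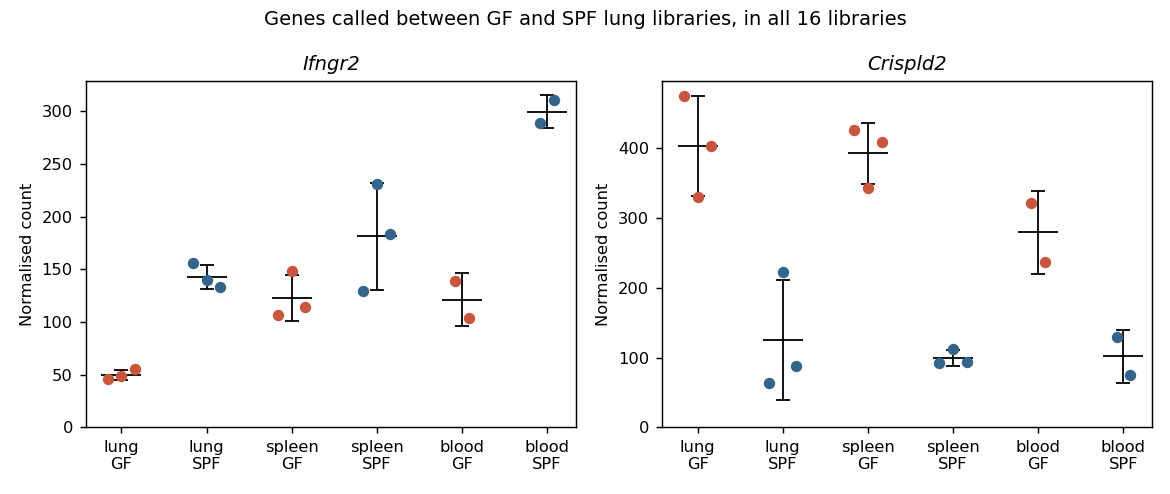
Normalised counts (vertical axes, from 0) of Ifngr2 and Crispld2 in each of the 16 libraries, grouped by tissue and status along the horizontal axis. Points are libraries, wide bars are means and whiskers are SD; GF lung lies below SPF lung for Ifngr2 (45.9 to 55.1 against 133 to 156) and above it for Crispld2 (330 to 474 against 63.1 to 223).

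Both genes had the same sign in the other tissues, which are separate libraries. Ifngr2 in blood stood at 139 and 104 in GF, against 289 and 311 in SPF (log2 difference -1.29, adjusted p 0.0311 in limma). In spleen, Ifngr2 stood at 106, 148 and 114 in GF, against 130, 231 and 183 in SPF (log2 difference -0.53, adjusted p 0.391), with overlapping groups. Crispld2 in spleen stood at 426, 343 and 408 in GF, against 91.5, 112 and 94.0 in SPF (log2 difference 1.95, adjusted p 0.00305), and in blood at 321 and 237 in GF, against 129 and 75.3 in SPF (log2 difference 1.49, adjusted p 0.0519). Tested directly, the lung difference minus the mean of the blood and spleen differences passed for 0 of 8299 genes (0%) in limma, with 361 genes at an unadjusted p under 0.05 and a smallest adjusted p of 0.878. It was -0.59 (SE 0.322) for Ifngr2 and 0.15 (SE 0.402) for Crispld2. The fitted values keep the half-read offset, which is worth more in shallow libraries. Genes near 0 reads outside lung therefore get a difference there that follows depth. Hpgd, at 0 in every blood library, had a blood log2 difference of 0.99. For such genes this test cannot decide whether the lung difference is particular to lung. Without the 5 shallow blood and spleen libraries, an alternative chosen after seeing the data, 13 genes passed this test. Blood had 110 genes called between GF and SPF (1.33%) and spleen 27 (0.325%). A larger number in one tissue does not show that the response differed.

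**Figure D2:**
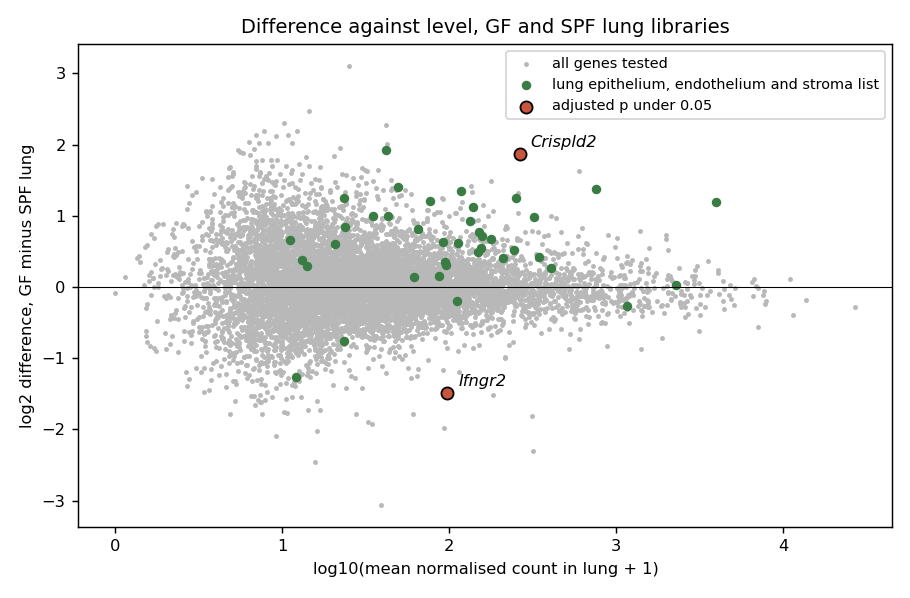
Each of 8299 tested genes by its mean level in the 6 lung libraries (horizontal axis, log10 scale) and its log2 difference, GF minus SPF lung (vertical axis). The 2 genes with an adjusted p under 0.05 are labelled, and 35 of the 39 measured transcripts of the lung list (epithelium, endothelium and stroma) lie above 0.

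The next genes by p did not pass, and their values are given as such. Sla, an adaptor that dampens receptor tyrosine kinase and antigen receptor signalling, stood at 1287, 672 and 747 in GF lung, against 252, 441 and 194 in SPF lung. The groups did not overlap, the log2 difference was 1.63 (SE 0.333) and the adjusted p was 0.391 in limma. Serinc3, a membrane protein that restricts retroviruses, stood at 3032, 2194 and 2248 in GF lung, against 1334, 1784 and 1389 in SPF lung (log2 difference 0.73, SE 0.177). Gpr141, an orphan receptor, Gpt2, a mitochondrial alanine aminotransferase, and Abcd2, a peroxisomal fatty acid transporter, were the other 3 nearest the threshold on the higher side, with log2 differences of 1.15, 2.48 and 1.08. Gpt2 was a low gene, at 28.98, 17.7 and 24.6 in GF lung, against 1.97, 4.66 and 2.08 in SPF lung, so few reads lie behind its SPF values. All 5 had GF libraries above every SPF library.

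On the lower side, Ptk2b, a tyrosine kinase of integrin signalling, stood at 193, 141 and 199 in GF lung, against 292, 306 and 301 in SPF lung (log2 difference -0.77, SE 0.209, adjusted p 0.867 in limma). Slc16a3, a lactate exporter, stood at 1729, 1345 and 1199 in GF lung, against 1800, 2574 and 2672 in SPF lung (log2 difference -0.72). Rasgrp4, an exchange factor for Ras, stood at 90.4, 104 and 97.0 in GF lung, against 164, 149 and 227 in SPF lung (log2 difference -0.86). Groups did not overlap for any of these genes, nor for Zswim4 (log2 difference -0.997) or Gbas (-1.42). Each of the last 4 had an adjusted p of 0.999.

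Transcripts of lung structural cells were counted in every lung library, with a higher mean in GF lung but overlapping groups. Of 73 listed genes of epithelium, endothelium and stroma, 39 were in the table, and all 39 were tested. Their summed level was 10420, 17590 and 17700 in GF lung, against 6791, 9515 and 10840 in SPF lung, and 1405 to 2878 in the 10 blood and spleen libraries. GF replicate 2 lay inside the SPF range and the other GF libraries lay above it. The means were 15200 ± 4170 in GF lung and 9050 ± 2070 in SPF lung (SD, n = 3 each). The mean log2 difference was 0.737, and the exact two-sided permutation test gave p = 0.2, where 3 libraries against 3 cannot go below 0.1. The list took 1.06 to 1.87% of the summed level in GF lung, against 0.683 to 1.14% in SPF lung. In the fit to all 16 libraries, 0 of the 39 passed adjustment (Calcrl and Esam passed in the fit of the 6 lung libraries alone), 8 had an unadjusted p under 0.05, all higher in GF lung, and 35 of 39 had a positive difference. The list's median log2 difference was 0.63, against 0.03 over all genes tested, and 11 members had GF libraries above every SPF library while 0 had them below.

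The compartments did not all show the same pattern. The 8 alveolar type II transcripts, from the surfactant-producing cell, summed to 4029, 9196 and 8692 in GF lung, against 2295, 2795 and 4174 in SPF lung. GF replicate 2 again fell within the SPF range, the exact permutation p was 0.2, and the median log2 difference was 1.27. Surfactant protein C, Sftpc, made up most of this sum, at 3040, 7069 and 6490 in GF lung, against 1715, 2113 and 3178 in SPF lung. The 9 endothelial transcripts summed to 1788, 1091 and 1845 in GF lung, against 650, 978 and 919 in SPF lung, and all 9 were positive. These groups did not overlap, and the exact permutation p was 0.1, the smallest this design allows. Calcrl, a receptor for adrenomedullin and calcitonin gene-related peptide in vessels, was among them at 371, 217 and 481 in GF lung, against 138, 171 and 120 in SPF lung (unadjusted p 0.00796, adjusted p 0.999 in limma). Airway RNA did not follow status: Scgb1a1, the club cell secretoglobin, stood at 78.5, 2121 and 2049 in GF lung, against 540, 919 and 1213 in SPF lung. GF replicate 2 was the lowest of all 6 and the other GF libraries the highest, and its log2 difference was -0.27, which became 1.3 without that library.

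**Figure D3:**
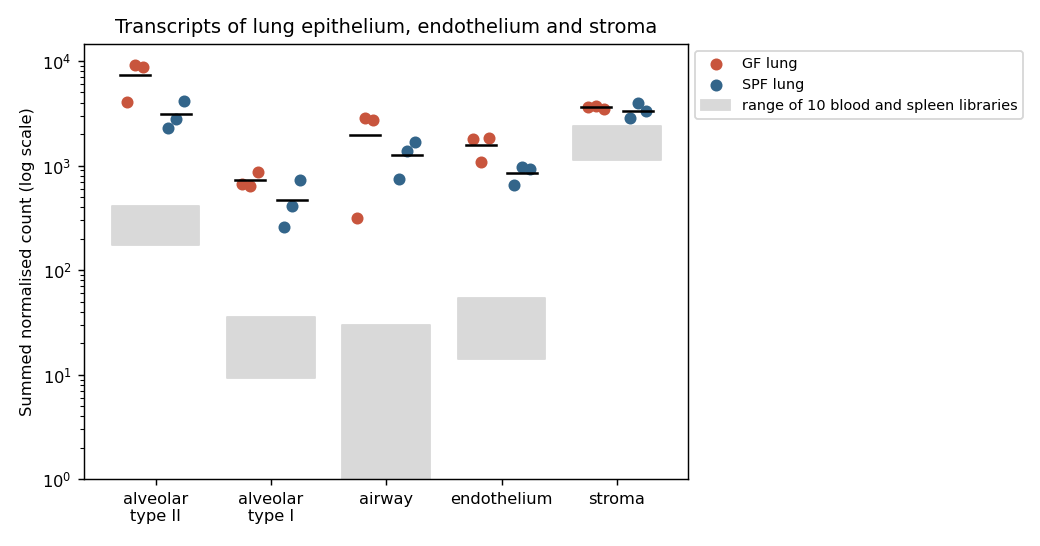
Summed normalised counts (vertical axis, log scale) of listed transcripts of 5 lung compartments in the 3 GF and 3 SPF lung libraries; points are libraries and bars are means. Grey boxes give the range of the 10 blood and spleen libraries, drawn down to 1 where the lowest was 0; the GF libraries are separate from the SPF libraries in endothelium, whereas airway RNA spans 313 to 2872 in GF lung.

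The stromal sum overlapped, at 3591, 3715 and 3469 in GF lung, against 2825, 3919 and 3289 in SPF lung, and blood and spleen also held 1121 to 2379, so part of that list is counted outside lung. The alveolar type I sum overlapped as well, at 673, 631 and 868 in GF lung, against 258, 415 and 729 in SPF lung. Ager, an alveolar type I receptor, stood at 197, 213 and 167 in GF lung, against 41.4, 124 and 322 in SPF lung. Sftpb, Col1a2, Sparc, Cldn5 and Pecam1 overlapped too. Cdh5 and Col3a1 were not analysed here. In bulk samples, fewer cells of a type and less RNA per cell cannot be told apart, and this applies to each of these transcripts.

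A fit to the 6 lung libraries alone called more genes than the fit to all 16 libraries. It called 14 of 8299 genes (0.169%), 11 higher and 3 lower in GF lung, of which Ifngr2 is shared with the fit to all libraries. For 7 of the 11, the lowest lung library exceeded every blood and spleen library. The share of all genes tested that did so was not counted, so the 7 are only described. The fits to all libraries and to lung alone also differ in SE, at 0.496 and 0.201 for Hpgd. For Crispld2 the SE went the other way, at 0.315 and 0.436. Calcrl and Esam, an endothelial adhesion molecule, belong to the lung list. Hpgd, which inactivates prostaglandins, stood at 379, 272 and 464 in GF lung, against 138, 147 and 149 in SPF lung, and at most 9.40 elsewhere (log2 difference 1.32, SE 0.201, adjusted p 0.00426 in limma). Slc9a3r2, a scaffold of membrane transporters, stood at 170, 180 and 239 in GF lung, against 59.1, 88.6 and 68.7 in SPF lung, and at most 14.1 elsewhere (adjusted p 0.00426). Both genes had non-overlapping groups. Lpl, the lipoprotein lipase, Adgrl4, an endothelial adhesion receptor, Tinagl1, a basement membrane protein, Pxdc1, Gpt2, Cpne2 and Ibtk completed the higher calls.

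The 3 lower calls of that fit were Ifngr2, Irg1 and Zswim4. Irg1 (also Acod1), the enzyme that makes itaconate in activated myeloid cells, stood at 953, 1059 and 961 in GF lung, against 1634, 2016 and 1805 in SPF lung. No library of one group reached the other, and the highest blood or spleen library held 160. Its log2 difference was -0.87 with an adjusted p of 0.0218 in the lung fit and 0.999 in the fit to all libraries. Crispld2 had an adjusted p of 0.24 in the lung fit.

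With the summed lung list as a covariate in the lung fit, 1 gene passed. It was the MHC class I gene H2-Q6, whose near-identical copies make its counts uncertain. The median log2 difference of the 11 genes was 1.26 with the covariate and 1.32 without it. The covariate is a sum in which Sftpc weighs most, and 2 of the 11 genes belong to its list, so it does not separate these genes from carried-over RNA of endothelium or other compartments. Ifngr2 stayed at -1.50 (adjusted p 0.276 in limma) and Crispld2 at 1.72 (adjusted p 0.81). The SE of Ifngr2 was 0.347 with the covariate and 0.221 without it. The covariate itself is higher in 2 of 3 GF libraries than in any SPF library, and the part of carried-over RNA in the 11 differences was not tested beyond this fit.

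**Figure D4:**
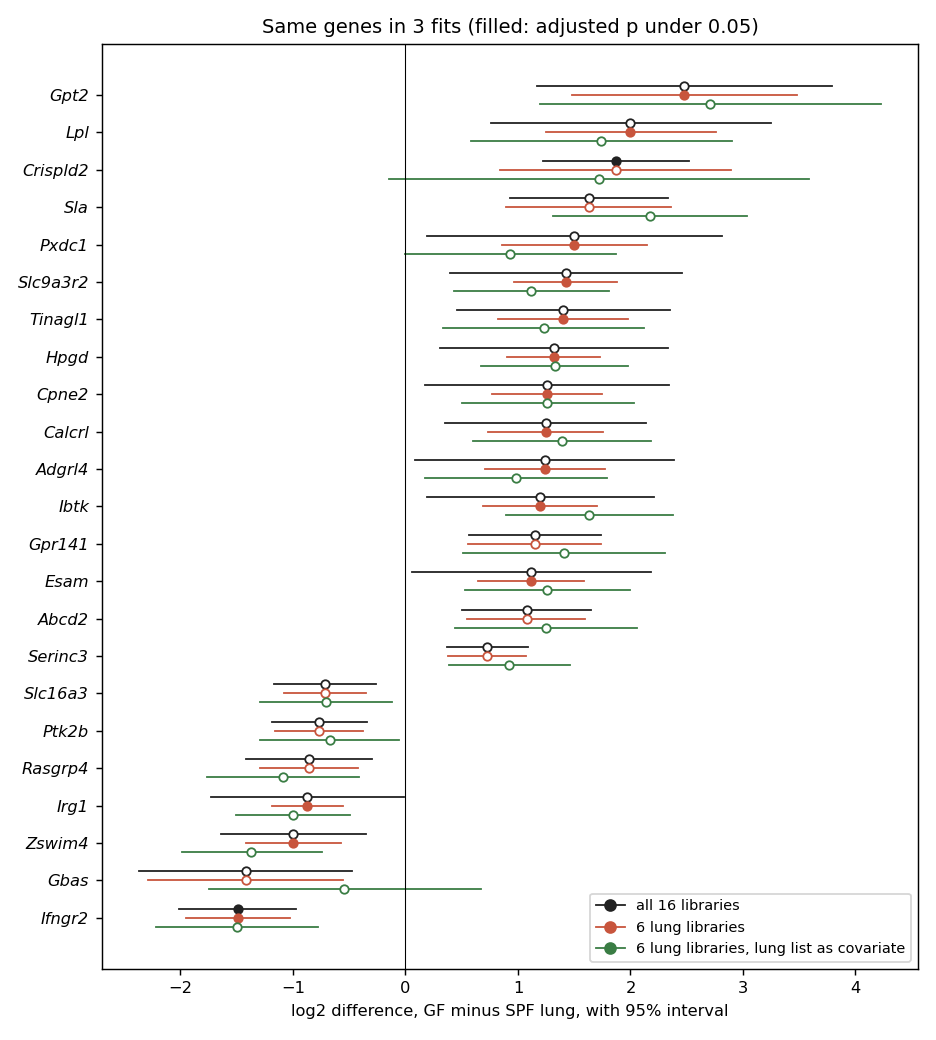
Log2 differences, GF minus SPF lung (horizontal axis), with 95% intervals, for 23 genes in the fit of all 16 libraries, of the 6 lung libraries, and of the 6 lung libraries with the lung list as a covariate. Filled points have an adjusted p under 0.05; Ifngr2 is filled in the first and second fits and Crispld2 in the first.

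Of 15 tested interferon receptors and JAK-STAT genes, 1 passed, Ifngr2, and the median log2 difference was 0.05. The partners of Ifngr2 were chosen for description after their values were seen. Ifngr1, the ligand-binding chain, stood at 540, 456 and 460 in GF lung, against 436, 476 and 476 in SPF lung. Jak1, a kinase bound to the receptor, stood at 772, 750 and 770 in GF lung, against 686, 892 and 653 in SPF lung. The groups overlapped for both genes and for Jak2. The 95% interval of the log2 difference ran from -0.35 to 0.48 for Ifngr1.

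Of 57 tested interferon response genes, 0 passed in limma, 5 had an unadjusted p under 0.05, all higher in GF lung, and 46 of 57 were positive. The median log2 difference was 0.30 in lung, and beside it stood -0.56 in blood and 0.26 in spleen. Irf7, the transcription factor that amplifies type I interferon, stood at 400, 418 and 535 in GF lung, against 221, 410 and 220 in SPF lung. SPF replicate 2 lay above GF replicate 2, so the groups overlapped. Cmpk2, a mitochondrial nucleotide kinase, stood at 203, 218 and 213 in GF lung, against 130, 161 and 146 in SPF lung, without overlap. Slfn8 and Parp14 were the other 2 named members, with log2 differences of 0.76 and 0.82. The 9 GTPases of the list, which interferon-gamma induces strongly, had a median of -0.27, with 4 positive and 5 negative.

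**Figure D5:**
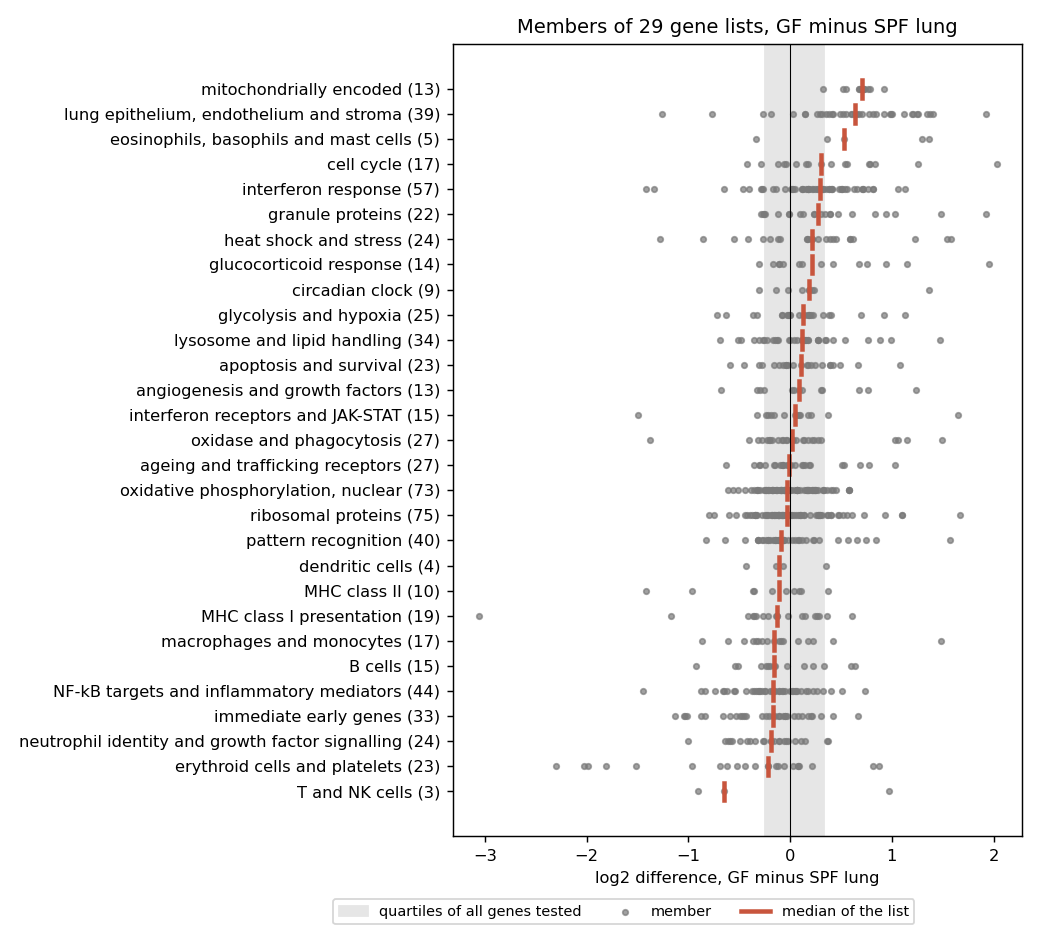
Log2 differences, GF minus SPF lung (horizontal axis), of the tested members of 29 gene lists (rows, with the number tested), ordered by median. Grey points are genes, red bars are list medians and the shaded band spans the quartiles of all genes tested (-0.25 to 0.33); the mitochondrially encoded and lung lists have medians of 0.70 and 0.63.

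In the fit to all 16 libraries, no inflammatory mediator was called, and most had negative values. Of 44 tested NF-kB targets and mediators, 0 passed there (Irg1 passed in the lung fit), 3 had an unadjusted p under 0.05, all lower in GF lung, and 29 were negative with a median log2 difference of -0.17. These were Irg1, Csf1 and Marcksl1. Csf1, the macrophage growth factor, stood at 436, 335 and 586 in GF lung, against 564, 805 and 869 in SPF lung, with overlap. Marcksl1, a regulator of the actin cortex, stood at 304, 439 and 496 in GF lung, against 581, 672 and 670 in SPF lung, without overlap. Of 33 immediate early genes, 24 were negative (median -0.17) and 8 had GF libraries below every SPF library. Zfp36l1, which promotes decay of AU-rich mRNA, stood at 37.4, 29.2 and 34.8 in GF lung, against 82.8, 54.8 and 95.1 in SPF lung. Fosb stood at 43.5, 41.6 and 53.6 in GF lung, against 86.7, 67.6 and 147 in SPF lung. Jun had the opposite sign, at 192, 249 and 383 in GF lung, against 158, 207 and 138 in SPF lung. None of these passed adjustment.

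No member passed in the lists of granule proteins, pattern recognition, neutrophil identity or trafficking receptors, none of which holds Crispld2. Of 22 tested granule protein genes, 0 passed and 4 had an unadjusted p under 0.05, all higher in GF lung (median log2 difference 0.27). Mmp8, neutrophil collagenase, stood at 2113, 1655 and 1402 in GF lung, against 1332, 1349 and 1206 in SPF lung. Chil3, a chitinase-like protein of neutrophils and alveolar macrophages, stood at 152, 159 and 509 in GF lung, against 78.8, 81.6 and 84.3 in SPF lung. Neither gene had overlapping groups. GF replicate 4 was far above the other GF libraries for Chil3. Lyz1, which has a near-identical neighbour in Lyz2 and belongs to the lung list too, overlapped. The remaining one was a line of Itgam, an integrin whose symbol is on more than 1 line. It stood at 152, 71.5 and 97.1 in GF lung, against 38.9, 86.7 and 34.7 in SPF lung, with overlap.

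Of 40 pattern recognition genes, 0 passed, 3 had an unadjusted p under 0.05 on the higher side and 1 on the lower (median -0.08). Tlr4, the receptor for lipopolysaccharide, stood at 128, 115 and 144 in GF lung, against 94.6, 90.9 and 72.9 in SPF lung. Tlr7, a sensor of single-stranded RNA, stood at 65.2, 24.8 and 18.9 in GF lung, against 7.88, 6.99 and 14.6 in SPF lung. Groups did not overlap for either receptor, while Tlr13, a sensor of bacterial ribosomal RNA, overlapped. Clec12a, an inhibitory lectin, was the lower one, at 99.4, 105 and 84.1 in GF lung, against 191, 120 and 149 in SPF lung. Among 24 neutrophil identity and growth factor genes, 19 were negative (median -0.19), and Csf2ra, a chain of the GM-CSF receptor, stood at 255, 298 and 218 in GF lung, against 378, 341 and 356 in SPF lung. Among 27 ageing and trafficking receptors, Cxcr4, which retains neutrophils in marrow and marks aged cells, stood at 138, 167 and 145 in GF lung, against 199, 221 and 282 in SPF lung. The list's median was -0.01, and 0 of its members passed.

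The 13 transcripts of the mitochondrial genome had differences of the same sign. All 13 were positive, with a median log2 difference of 0.70; 5 had an unadjusted p under 0.05 and 0 passed. Their sum was 5905, 6989 and 12730 in GF lung, against 4271, 4541 and 6463 in SPF lung. GF replicate 4 was the highest, and GF replicate 2 lay inside the SPF range. In the 10 blood and spleen libraries the sum ran from 607 to 2085. The lung list moved with this sum in status, and whether the mitochondrial RNA came with it was not tested. The nuclear oxidative phosphorylation genes had a median of -0.03 over 73 genes, with 0 at an unadjusted p under 0.05.

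Stress and nutrient genes had single members with separate groups. Of 24 heat shock and stress genes, 4 had an unadjusted p under 0.05 on the higher side and 2 on the lower, and 0 passed. Chac1, which degrades glutathione in the unfolded protein response, stood at 44.7, 47.8 and 34.8 in GF lung, against 17.7, 16.3 and 16.7 in SPF lung. Hsp90ab1, a chaperone, stood at 336, 382 and 332 in GF lung, against 173, 260 and 256 in SPF lung. The GF libraries lay above every SPF library for both genes. The RNA-binding proteins induced by cold, Rbm3 and Cirbp, were the lower pair, with log2 differences of -0.86 and -1.28. Fkbp5, a glucocorticoid target that tunes the receptor, stood at 47.1, 25.7 and 29 in GF lung, against 1.97, 9.32 and 14.6 in SPF lung, without overlap. It was the 1 member of 14 glucocorticoid response genes with an unadjusted p under 0.05. Plin2, which coats lipid droplets, stood at 327, 346 and 388 in GF lung, against 213, 242 and 171 in SPF lung. Psap, a precursor of lysosomal saposins, stood at 845, 618 and 669 in GF lung, against 885, 999 and 1136 in SPF lung. Hif1a, the hypoxia-inducible factor, stood at 144, 93.8 and 123 in GF lung, against 164, 212 and 181 in SPF lung. Each of these 3 genes had separate groups, in the direction of its values, and an adjusted p of 0.999 in limma.

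A pair of MHC class I genes had lower values in GF lung, in a family whose near-identical members make counts uncertain. H2-Q7 stood at 44.6, 58.0 and 52.5 in GF lung, against 91.2, 216 and 82.2 in SPF lung. H2-Q6 stood at 1.21, 11.5 and 7.54 in GF lung, against 19.8, 106 and 81.9 in SPF lung. No library overlapped for either gene, the adjusted p was 0.999 in limma in the fit to all 16 libraries, and the median of the 19 class I presentation genes was -0.13. H2-Q6 passed only in lung-only limma fits with a covariate. Its log2 difference was -5.15 with the lung list (adjusted p 0.000103) and -3.72 with the Y-linked level (adjusted p 0.00277). The expected counts of RSEM share reads among such copies.

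Genes listed as markers of other blood cells were counted in all lung libraries, though some were also counted throughout blood and spleen. Macrophage and monocyte genes summed to 9138, 8922 and 9144 in GF lung, against 10580, 11560 and 9596 in SPF lung, without overlap, and 0 of 17 tested passed (median -0.16). The alveolar macrophage genes among them, which include Chil3, had the opposite order, at 331, 266 and 661 in GF lung, against 240, 249 and 249 in SPF lung, also without overlap. These genes were not particular to lung, with sums of 118 to 285 in blood and 1098 to 3839 in spleen. Chil3 alone stood at 152, 159 and 509 in GF lung and at 899 to 3632 in spleen. T and NK cell genes, of which 3 were tested, summed to 28.98, 20.3 and 21.8 in GF lung, against 31.5, 33.8 and 29.1 in SPF lung, also lower in every GF library though by a narrow gap. B cell genes summed to 526, 643 and 600 in GF lung, against 784, 594 and 592 in SPF lung, with overlap. Erythroid genes summed to 2097, 66.4 and 186 in GF lung, against 428, 1084 and 1822 in SPF lung, with GF replicate 2 the highest of all. Platelet genes overlapped, at 2503, 2318 and 2196 in GF lung, against 1636, 3725 and 1781 in SPF lung. Gata2 and Kit, genes of basophils and mast cells that lung endothelium also expresses, were the 2 with an unadjusted p under 0.05 among 5 tested genes of 18 listed for eosinophils, basophils and mast cells. The 5 differences ran from -0.33 to 1.37, and the list's sum overlapped, at 4214, 4047 and 3891 in GF lung, against 2257, 5140 and 2599 in SPF lung. Hdc made up most of this sum, at 3947, 3910 and 3667 in GF lung, against 2124, 4999 and 2479 in SPF lung. Hdc also stood at 869 to 4666 in blood and spleen, so the sum is not particular to these cells. Gata2 stood at 84.5, 44.3 and 78.3 in GF lung, against 19.7, 30.3 and 24.99 in SPF lung, and Kit at 93.0, 40.7 and 87.0 in GF lung, against 21.7, 33.8 and 27.1 in SPF lung. Neither overlapped, and their levels were high in the GF libraries that were high in endothelial RNA. The part of these cells in the gene differences was not tested.

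Precision limited what could be seen, and it is given here for the fit to all 16 libraries. In the fit to lung alone the SE was smaller for some genes (Hpgd, 0.201 against 0.496) and larger for others (Crispld2, 0.436 against 0.315). The median SE of a log2 difference was 0.514, and the quartiles of the log2 differences were -0.25 and 0.33. An absolute log2 difference over 1 was found for 471 genes (5.68%) and over 2 for 19. The 95% interval lay within 1 log2 unit of 0 on both sides for 2268 genes (27.3%), so a change of 1 log2 unit was outside the interval for those genes. This held for 0 of 1929 genes with a mean lung level under 10, for 22.7% of 4910 genes from 10 to 100, for 78.5% of 1282 genes from 100 to 1000 and for 83.1% of 178 genes above 1000. Rank correlations between libraries, given as a description across genes, ran from 0.908 to 0.921 within GF lung, from 0.903 to 0.922 within SPF lung and from 0.873 to 0.934 between them. Some GF and SPF libraries were thus as alike as libraries of 1 status. The medians were 0.921 within GF lung, 0.912 within SPF lung and 0.906 between them. On the first principal component, the axis of largest variance (29.8%), GF libraries stood at 16.9, 8.57 and 33.7. The SPF libraries stood at -47.3, -0.616 and -11.3 on it, and this separation was not tested.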

How the data were processed

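Bulk RNA sequencing of sorted Ly6G+ neutrophils was deposited as 1 table of 10296 genes by 16 libraries. Per the submitters' processing notes, the authors' tools were CASAVA, limma and RSEM 1.3.1, which gives expected counts, with the assembly mm10. The annotation version and the scaling between libraries are not given in the sources used here, and the organ dissociation is not described. The deposited values are a linear signal whose low values step in whole reads above an offset of 0.5 reads: (expected count + 0.5) times the worth of 1 read. Reads were recovered by inverting this. Within 0.05 of a whole read lay 92.4 to 95.2% of low values in lung. The values were therefore not taken as raw counts, for which an edgeR fit was planned, and that fit was not run. Limma's voom weights were applied to the recovered reads as an alternative.

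Differences were fitted here with limma 3.58.1 in R 4.3.3 on log2(deposited value + 1), offset included, which understates changes of low genes. The model held 6 group means over all 16 libraries, with a prior both trended and robust; tests were two-sided and p-values adjusted by Benjamini-Hochberg, with a threshold of 0.05. The filter asked for a value of 10 or more in 2 or more libraries (8299 genes kept, 1997 removed). The procedure was tested on simulated data. Symbols and coordinates (counted from 1) are from GENCODE M21, where 10275 identifiers matched. Overlapping and antisense genes are uncertain, since no strand-aware counting is stated. Named genes are up to 12 of the largest passing changes per direction with a mean of at least 10 and no overlap, the 5 smallest p among those not passing where fewer than 5 passed, up to 4 smallest p per list, and fixed cell markers. Genes called in the lung-only fit, the partners of Ifngr2, Fosb, and members named beside these were described after their values were seen. Some results are not reported here. The members and lists were chosen with earlier results of these data known. Alternatives covered pseudocount, filter, scaling, prior, weights, depth, blocks, covariates and each lung library left out.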

Additional observations from a re-analysis of the deposited data

How the results depend on the processing

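The 2 genes called in lung numbered 2 or 3 under other pseudocounts, filters, scalings, a prior that was not robust and thinning to equal depth. They numbered 0 with no trend in the prior (327 genes at an unadjusted p under 0.05 in limma), 1 with array weights, 14 in the 6 lung libraries alone and 1 there with the lung list as a covariate. Leaving out each lung library in turn gave 0 to 5 calls. In alternatives chosen after seeing the data, calls numbered 1 with the Y-linked level as a covariate, 5 with it in the lung libraries alone, 1 without the 5 shallow blood and spleen libraries and 4 with voom weights on recovered reads. The cause was not tested for any of these, beyond the fewer libraries where some were left out. Both genes kept their direction in all 24 alternatives, many of which could not reverse it. Leaving out 1 library cannot do so where groups do not overlap, and filter or prior settings left the estimates unchanged. Ifngr2 ran between -1.57 and -1.42, past the threshold in 17 (adjusted p 4.48e-05 to 0.523 in limma), and Crispld2 between 1.49 and 2.38, past it in 12 (1.5e-05 to 0.999). The test of lung against the other tissues gave 2 calls with array weights, 1 with the Y-linked covariate, 13 without the shallow libraries and 0 elsewhere. The log2 difference of the lung list's sum was 0.532 without Sftpc and 0.543 to 0.99 on leaving out a library.

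Replicate numbers 2 and 3 occur in both groups. The deviations of libraries sharing them had correlations of 0.0271 and -0.00939, within the -0.0588 to 0.0607 of all 9 pairs. With 2 such pairs, this cannot decide whether a shared number marks anything else in common. A fit with the replicate block gave 3 calls, the 2 genes and Sla.

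Of 2039 gene values under alternatives, 25 changed sign, all of differences that were not called. With the lung list as a covariate in the lung libraries these were Lyz1 -0.616, S100a8 0.353, Csf3r 0.151, Cxcr2 -0.15, Sftpb -1.38, Ager -0.443, Col1a2 -0.667, Sparc -0.115 and Xist -0.522. With the Y-linked level there they were Jak1 -0.0211, Cxcr2 -0.0389 and Col1a2 -0.0517. Quantile rescaling gave Csf3r 0.131 and thinning Col1a2 -0.00822. On leaving out a library, ranges that crossed 0 were -0.0131 to 0.108 for Ifngr1, -0.0343 to 0.19 for Jak1, -0.457 to 0.183 for S100a8, -0.16 to 0.0334 for Csf3r (0.0278 without SPF replicate 2), -0.0524 to 0.166 for Cxcr2 (-0.0298 without GF replicate 3), -1.06 to 1.3 for Scgb1a1, -0.0602 to 1.39 for Ager and -0.194 to 0.35 for Col1a2, and Sftpb stood at -0.0243 without SPF replicate 1.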

Other observations

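Several housekeeping groups lay close to the median of all genes. The 75 tested ribosomal protein genes had a median log2 difference of -0.03, with 32 positive and 43 negative, and summed to 3292, 3402 and 3245 normalised counts in GF lung, against 3931, 2981 and 3474 in SPF lung. The groups overlapped. The 3 ribosomal genes with an unadjusted p under 0.05 were all higher in GF lung, among them the low gene Rps21 at 8.45, 7.08 and 4.35 in GF lung, against 1.97, 0 and 1.04 in SPF lung, which is a handful of reads in each library. Circadian clock genes (9 tested, median 0.19) held 1 such gene, Clock, at 13.3, 5.31 and 10.1 in GF lung, against 0, 4.66 and 4.16 in SPF lung. Among 23 apoptosis and survival genes (median 0.10), the survival factor Bcl2l1 stood at 121, 71.7 and 110 in GF lung, against 45.3, 57.1 and 36.4 in SPF lung, without overlap and with an adjusted p of 0.999 in limma. Among 17 cell cycle genes (median 0.30), Mcm3, a subunit of the replication helicase, stood at 14.5, 6.20 and 11.6 in GF lung, against 3.94, 0 and 1.04 in SPF lung. Among 25 glycolysis and hypoxia genes (median 0.12), the collagen hydroxylase P4ha1 stood at 51.9, 33.6 and 23.2 in GF lung, against 13.8, 18.6 and 12.5 in SPF lung. GF libraries were above every SPF library for each of these genes, and 0 genes of these lists passed adjustment.

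SPF libraries that share a replicate number across tissues did not always share their Y-linked level. SPF replicate 3 had a Y-linked sum of 138 in lung and 0.452 in blood, and SPF replicate 2 had 1.17 in lung and 106 in spleen.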
